A study of Gallus gallus with 16 samples.

Results

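Day 42 was compared with day 35 in the duodenum of the HRFI line of chickens, which is selected for high residual feed intake. The comparison takes 8 of the series' 16 arrays, 4 labelled duodenum HRFI day 42 and 4 labelled duodenum HRFI day 35, chosen by their titles, and all 38439 probe sets that are not array controls. The other 8 arrays are of the low residual feed intake line, LRFI, with 4 at day 42 and 4 at day 35, and serve here only to show where the age difference in HRFI departs from that in LRFI. All birds came from 1 population selected in opposite directions, so each group is a line at an age, with no treatment. Total RNA was hybridised to one-colour Affymetrix chicken arrays. Whether the 4 arrays of a group are 4 birds is not given in the labels, nor are sex and batch, so a p-value here reflects only how far these arrays vary, which may be technical. Levels are log2 values, a difference is day 42 minus day 35 unless another is named, and ± is the SD of 4 arrays.

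Residual feed intake is the feed that an animal eats above or below what its body weight and growth predict. The duodenum lies just behind the gizzard, receives bile and pancreatic juice, and carries villi covered with enterocytes that digest and absorb nutrients and are renewed from dividing cells in the crypts. Besides absorbing sterols, enterocytes make cholesterol from acetyl-CoA through the mevalonate pathway, whose enzyme genes are induced together by the transcription factor SREBP2 when cell sterol is low. The markers of duodenal enterocytes fit the labelled tissue. APOA4, an apolipoprotein, averaged 14.46 ± 0.088 at day 42 and 14.47 ± 0.18 at day 35. The peptide transporter SLC15A1 averaged 13.69 ± 0.095 at day 42 and 13.38 ± 0.19 at day 35. Of 11 markers measured, 10 had levels above at least 97.9% of all probe sets, and the exception was FABP6, known for the ileum, at 5.31 ± 0.33 at day 42 and 5.48 ± 0.27 at day 35. PDX1 was not analysed here.

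Some arrays stood apart before any comparison. The 3′ actin control probe set exceeded the 5′ one by 1.83 and 2.07 on day 35 replicates 2 and 3 and by 1.20 on day 42 replicate 4, against 0.20 to 0.50 on the other 5 HRFI arrays, a difference that is in common use as a check on RNA integrity. The group means of that difference were 0.55 ± 0.45 at day 42 and 1.11 ± 0.97 at day 35 (exact two-sided permutation test, p = 0.314, smallest possible 0.0286). The mean of 19 genes of pancreatic acinar cells (the gland is cradled by the loop of the duodenum) was 11.96 on day 35 replicate 3 and 5.29 to 5.85 on the other 7 HRFI arrays. In LRFI it was 9.94 on day 42 replicate 2 and 5.45 to 6.11 on the other 7 arrays, and the LRFI median of these genes was 1.12 with 17 of 19 higher, or −0.058 with 6 higher without that array. Correlations between arrays across probe sets were 0.990 to 0.993 within day 42 and 0.976 to 0.989 within day 35. Between ages they were 0.972 to 0.991, with a median of 0.989 against 0.984 within day 35. The mean of the pancreatic genes was 5.50 ± 0.15 at day 42 and 7.26 ± 3.13 at day 35 (same exact permutation test, p = 0.0571). Values without these arrays are given beside the gene groups they move. Those without arrays of high actin difference also leave out 2 LRFI arrays, day 35 replicates 3 and 4, at 1.13 and 1.48. That setting keeps only 3 day 42 and 2 day 35 arrays of HRFI. No LRFI value or difference between the lines was examined in that setting, nor with the actin difference in the model.

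**Figure D1:**
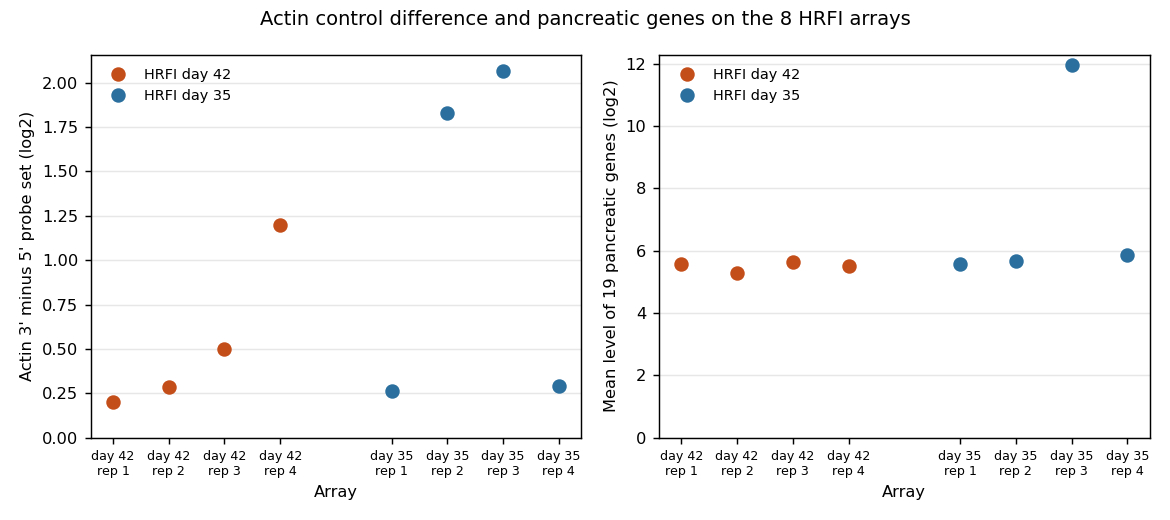
Each point is 1 HRFI array, day 42 left and day 35 right, with the log2 difference of the 3′ and 5′ actin control probe sets in the left panel and the mean log2 level of 19 pancreatic genes in the right panel. Actin differences over 1 occur on 1 day 42 array and 2 day 35 arrays, and the pancreatic genes are high on day 35 replicate 3, at 11.96.

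No probe set passed an adjusted p under 0.05 between day 42 and day 35 in HRFI (limma, Benjamini-Hochberg over 38439 probe sets, 0% called, smallest adjusted p = 0.109). At an unadjusted p under 0.05 there were 3183 probe sets, 1582 with higher and 1601 with lower means at day 42, where 1922 are expected by chance with independent probe sets. Differences over 1 in size were seen for 75 probe sets with higher and 94 with lower means. Of 13013 genes, each read by its brightest probe set, 49.7% had a higher mean at day 42, 5.82% had an unadjusted p under 0.05 and a higher mean, and 4.45% had such a p and a lower mean. For 2.8% of genes all 4 day 42 arrays lay above all 4 day 35 arrays, and for 2.56% all 4 lay below. Those shares are the background for each gene group. The 758 genes with an unadjusted p under 0.05 and a higher mean became 449 without day 35 replicate 3 and 463 without day 42 replicate 2. Without the arrays of high actin difference, 544 genes had such a p with a higher mean and 634 with a lower one. The test of the age difference in HRFI against that in LRFI also called no probe set (0% called, smallest adjusted p = 0.0622, 2438 at an unadjusted p under 0.05). In it, 4.14% of genes had an unadjusted p under 0.05 with the difference greater in HRFI, and 2.87% with it smaller. None of the genes below passed the adjusted threshold. In bulk tissue, fewer cells of a type and less RNA per cell cannot be told apart.

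Genes of cholesterol synthesis had the largest positive median difference of 46 gene lists. Of 20 measured, 17 had higher means, the median difference was 0.64 against −0.0010 over all genes, 14 had a higher mean with an unadjusted p under 0.05 and none a lower one. In 10 of them all 4 day 42 arrays lay above all 4 day 35 arrays. The members span the route from acetyl-CoA to cholesterol.

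The early steps build the isoprene units. ACAT2, which joins 2 acetyl-CoA, read 11.27, 11.28, 11.17 and 10.84 on the day 42 arrays, against 10.57, 10.61, 10.46 and 10.28 on the day 35 arrays. HMGCS1, which makes HMG-CoA, read 11.58, 12.02, 11.24 and 11.40 on the day 42 arrays, against 10.47, 10.95, 10.48 and 9.56 on the day 35 arrays. Both separate the ages completely, with mean differences of 0.66 and 1.20, with the lowest HMGCS1 value on day 35 replicate 4. The next enzymes differed less: mevalonate kinase MVK by 0.28, phosphomevalonate kinase PMVK by −0.050 and the decarboxylase MVD by 0.28. IDI2, an isopentenyl diphosphate isomerase, was in no list and was named by its small p. It read 10.98, 11.001, 10.51 and 10.35 on the day 42 arrays, against 9.19, 9.82, 9.31 and 8.24 on the day 35 arrays on its brightest probe set. Its difference was 1.57 on that probe set and 1.84 and 1.004 on the other two. FDPS, which makes farnesyl diphosphate, read 10.77, 10.07, 10.51 and 10.41 on the day 42 arrays, against 9.29, 9.81, 9.58 and 8.52 on the day 35 arrays. Its difference was 1.14 (SE 0.28, adjusted p = 0.326). GGPS1, which leads to geranylgeranyl diphosphate instead of sterol, differed by −0.12.

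FDFT1, the squalene synthase that commits the route to sterols, averaged 10.32 ± 0.49 at day 42 and 9.26 ± 0.88 at day 35, and its groups overlapped. SQLE, the squalene epoxidase, read 10.53, 10.63, 10.47 and 10.32 on the day 42 arrays, against 9.49, 9.48, 9.32 and 7.75 on the day 35 arrays. Every day 42 value exceeded every day 35 value, 3 of the day 35 arrays lay close together, and replicate 4 was far lower. SQLE differed by 1.48 (SE 0.29, adjusted p = 0.213), and by 1.74 on its second probe set. LSS, which closes the sterol rings, averaged 10.23 ± 0.18 at day 42 and 9.13 ± 0.41 at day 35, with separate groups. LSS differed by 1.10 (SE 0.20, adjusted p = 0.194), by 1.37 on a dimmer probe set and by 0.092 on the dimmest. CYP51A1, the lanosterol demethylase, was dimmer than these genes at both ages, with 5.39 ± 0.14 at day 42 and 5.36 ± 0.20 at day 35. CYP51A1 differed by 0.024, but differences of dim probe sets are compressed, so this value cannot show whether the gene differed with age.

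After ring closure, MSMO1 and NSDHL take part in removing methyl groups. MSMO1 read 13.14, 13.46, 12.84 and 12.77 on the day 42 arrays, against 12.34, 12.46, 11.76 and 11.14 on the day 35 arrays, a difference of 1.13 (SE 0.25, adjusted p = 0.273). NSDHL read 10.69, 10.74, 10.31 and 10.12 on the day 42 arrays, against 9.49, 9.60, 9.10 and 8.93 on the day 35 arrays. The NSDHL groups do not overlap, and its difference of 1.18 (SE 0.17, adjusted p = 0.109) had the smallest p of all probe sets, a 2.27-fold difference. HSD17B7 differed by 0.68, SC5D by 0.36 and DHCR7, the last step, by 0.52. STARD4, a sterol carrier in the cytosol, read 10.57, 10.57, 10.38 and 10.42 on the day 42 arrays, against 9.61, 10.36, 9.66 and 9.17 on the day 35 arrays, a difference of 0.78 (SE 0.19, adjusted p = 0.292). INSIG1, a feedback inhibitor of SREBP processing, differed by 0.63. Of the regulators themselves, SREBF2, which encodes SREBP2, differed by 0.16 and SCAP, its escort, by −0.054.

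**Figure D2:**
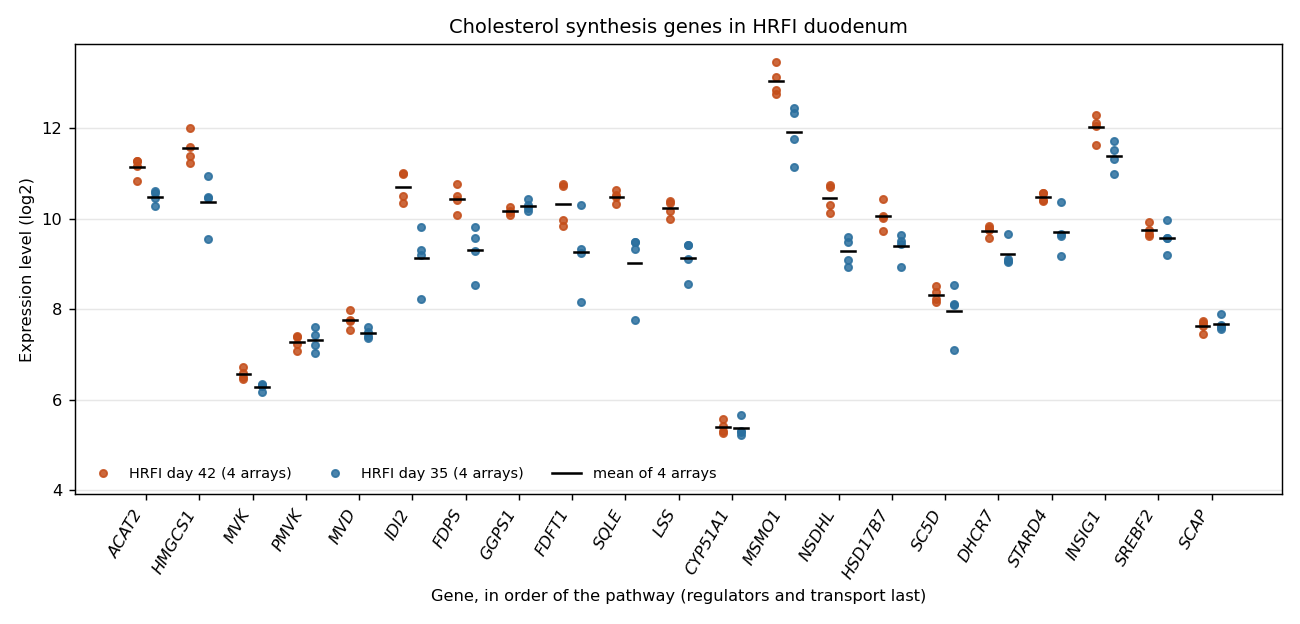
Each point is the log2 level of a gene on 1 HRFI array, with the 4 day 42 arrays left of the 4 day 35 arrays and a black bar at each mean, for the 20 genes of the list and IDI2 in pathway order. MSMO1, NSDHL, SQLE, LSS, FDPS and HMGCS1 show every day 42 point above every day 35 point, while PMVK, GGPS1, CYP51A1 and SCAP overlap.

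The mean over the 20 sterol genes was 9.80, 9.67, 9.59 and 9.51 on the day 42 arrays, against 9.07, 9.34, 9.08 and 8.58 on the day 35 arrays. The groups do not overlap, and day 35 replicate 4, which has a low actin difference and no pancreatic signal, was the lowest. The median difference was 0.78 without the arrays of high actin difference and 0.63 without day 35 replicate 3, and it stayed between 0.51 and 0.71 when any 1 of the 8 arrays was left out. In LRFI the median difference was 0.22, with 15 of 20 higher, and 0.15 without LRFI day 42 replicate 2. The difference between the lines had an unadjusted p under 0.05 for 6 of the 20, all greater in HRFI, and passed for none. The number was 7 without both arrays of high pancreatic signal. For FDPS, at −0.14 in LRFI, the difference between the lines was 1.28 (SE 0.40, adjusted p = 0.714). HMGCS1 was similar, at −0.094 in LRFI, and the difference between the lines was 1.29 (SE 0.44, adjusted p = 0.714).

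Chaperones of the cytosol and mitochondria, which fold proteins and are induced by heat and other stress, formed the group with the next largest median. Of 33 heat shock genes, 29 had higher means at day 42, with a median difference of 0.37. An unadjusted p under 0.05 was reached by 19 with a higher mean and 1 with a lower one, and in 6 all 4 day 42 arrays lay above all 4 day 35 arrays. HSPA9, the mitochondrial HSP70, read 11.68, 11.91, 11.69 and 11.78 on the day 42 arrays, against 11.41, 11.45, 11.44 and 11.24 on the day 35 arrays. The HSPA9 values separate by age, and the difference was 0.38 (SE 0.083, adjusted p = 0.273). CCT2, a subunit of the ring-shaped chaperonin that folds actin and tubulin, read 10.73, 10.89, 10.52 and 10.35 on the day 42 arrays, against 10.30, 10.14, 9.80 and 10.08 on the day 35 arrays. AHSA1, which activates the ATPase of HSP90, read 10.85, 10.68, 10.73 and 10.66 on the day 42 arrays, against 10.33, 10.61, 9.86 and 10.19 on the day 35 arrays. Both separate the ages, by 0.54 and 0.48. HSP90AA1, the inducible cytosolic HSP90, averaged 12.97 ± 0.13 at day 42 and 12.36 ± 0.43 at day 35 and its groups overlapped. HSPH1, an HSP110 that recharges HSP70, had the largest difference of the list at 1.04, and HSPD1, the mitochondrial HSP60, differed by 0.43. The 1 gene with a lower mean and a small p was HSF3, a heat shock factor described in birds, at −0.32 (SE 0.12, adjusted p = 0.472). HSPH1, HSPD1 and HSF3 are named because of their values.

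The mean of the 33 heat shock genes was 9.77 to 9.91 on the day 42 arrays, against 9.19 to 9.73 on the day 35 arrays, and the lowest array, at 9.19, was day 35 replicate 3, which also had the highest pancreatic mean and actin difference. Without that array the median difference was 0.27, with 14 genes higher at an unadjusted p under 0.05. Without the arrays of high actin difference it was 0.29, with 16. In LRFI the median was −0.037 and 13 of 33 had higher means, or −0.060 and 9 without LRFI day 42 replicate 2. The difference between the lines had an unadjusted p under 0.05 for 15 of 33, 14 of them greater in HRFI, and passed for none. The 14 became 9 without HRFI day 35 replicate 3, 13 without LRFI day 42 replicate 2 and 11 without both. AHSA1 differed by 0.48 in HRFI and −0.23 in LRFI, and the difference between the lines was 0.71 (SE 0.17, adjusted p = 0.539).

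Chaperones of the endoplasmic reticulum, where secreted and membrane proteins fold, had smaller differences. Of 26 genes 22 had higher means at day 42, with a median of 0.26, and 9 had a higher mean and none a lower mean at an unadjusted p under 0.05. ERO1A, which oxidises disulphide-forming enzymes, read 8.96, 8.97, 8.82 and 8.65 on the day 42 arrays, against 8.62, 8.12, 8.21 and 8.44 on the day 35 arrays. These values separate, and the difference was 0.50 (SE 0.13, adjusted p = 0.33). HYOU1, an ER chaperone of the HSP70 superfamily, read 9.26, 9.06, 8.91 and 9.06 on the day 42 arrays, against 8.68, 8.96, 8.59 and 8.50 on the day 35 arrays. Its groups overlap in that day 35 replicate 2 exceeded 1 of the day 42 arrays. The difference of HYOU1 was 0.39 (SE 0.10, adjusted p = 0.355). SDF2L1 differed by 0.54 and PDIA3, a disulphide isomerase, by 0.29, both with separate groups. ASNS, an asparagine synthetase induced by amino acid shortage, was the 1 gene whose day 42 arrays all lay below the day 35 arrays, by −0.59 (SE 0.29, adjusted p = 0.611). The list mean was 9.75 to 9.92 on the day 42 arrays, against 9.39 to 9.71 on the day 35 arrays, and the lowest was again day 35 replicate 3. Without that array the median was 0.16 with 6 genes higher at an unadjusted p under 0.05, so this array moved it by over 1.5 times. In LRFI the median was −0.066, and −0.044 without LRFI day 42 replicate 2. HYOU1 differed by −0.44 in LRFI, and the difference between the lines was 0.83 (SE 0.15, adjusted p = 0.518). HSPA5, or BiP, and CALR, or calreticulin, were also of opposite sign, at 0.37 and 0.29 in HRFI and −0.35 and −0.36 in LRFI. The difference between the lines had an unadjusted p under 0.05 for 8 of 26, all greater in HRFI. The 8 became 6 without HRFI day 35 replicate 3 and 9 without both arrays of high pancreatic signal. Without both, HYOU1 differed between the lines by 0.79 (SE 0.17, adjusted p = 0.582). The part of pancreatic tissue in the ER values was not tested beyond leaving out those arrays.

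Genes of the cell cycle and DNA replication, which mark dividing crypt cells, had small differences of nearly 1 sign. Of 61 genes 53 had higher means at day 42, with a median of 0.19, against 7 of 61 with a median of −0.25 in LRFI. In HRFI, 8 had a higher mean and none a lower mean at an unadjusted p under 0.05. NUF2, part of the kinetochore that binds chromosomes to the spindle, read 7.94, 8.09, 7.69 and 7.75 on the day 42 arrays, against 7.27, 6.54, 7.16 and 7.29 on the day 35 arrays. NUF2 separates the ages, with the lowest value on day 35 replicate 2, and differed by 0.80 (SE 0.21, adjusted p = 0.351). PLK4, which starts centriole duplication, read 6.39, 6.24, 6.34 and 6.08 on the day 42 arrays, against 5.90, 5.73, 5.89 and 5.92 on the day 35 arrays. PLK4 also separates the ages, by 0.40. CCNA2, cyclin A, averaged 7.37 ± 0.12 at day 42 and 6.89 ± 0.28 at day 35, and HMMR, a spindle protein, 3.97 ± 0.30 at day 42 and 3.48 ± 0.27 at day 35.

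The mean of the 61 cell cycle genes was 7.43 to 7.66 on the day 42 arrays, against 7.17 to 7.54 on the day 35 arrays, and the highest day 35 value was on replicate 4. The count of 8 genes became 19 without day 35 replicate 4, 3 without day 35 replicate 3 and 5 without day 35 replicate 1. Over all 13013 genes the count of 758 became 785, 449 and 1005 in the same settings. The counts of 3 and 5 of 61 thus lie near the share over all genes. The number of cell cycle genes with higher means was 51 to 55 when any 1 array was left out. The difference between the lines had an unadjusted p under 0.05 for 24 of 61 genes, all greater in HRFI, against 4.14% of all genes, and passed for none. The 24 became 13 without HRFI day 35 replicate 3, 27 without LRFI day 42 replicate 2 and 19 without both. Whether it changes without the arrays of high actin difference, which in LRFI are both at day 35, was not tested. NUF2 differed by −0.58 in LRFI, and the difference between the lines was 1.38 (SE 0.30, adjusted p = 0.539). Markers of crypt and stem cells, which include dividing cells, had a median of −0.0098 in HRFI, with 11 of 23 higher, which was −0.083 without day 35 replicate 1 and 0.026 without day 42 replicate 2.

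**Figure D3:**
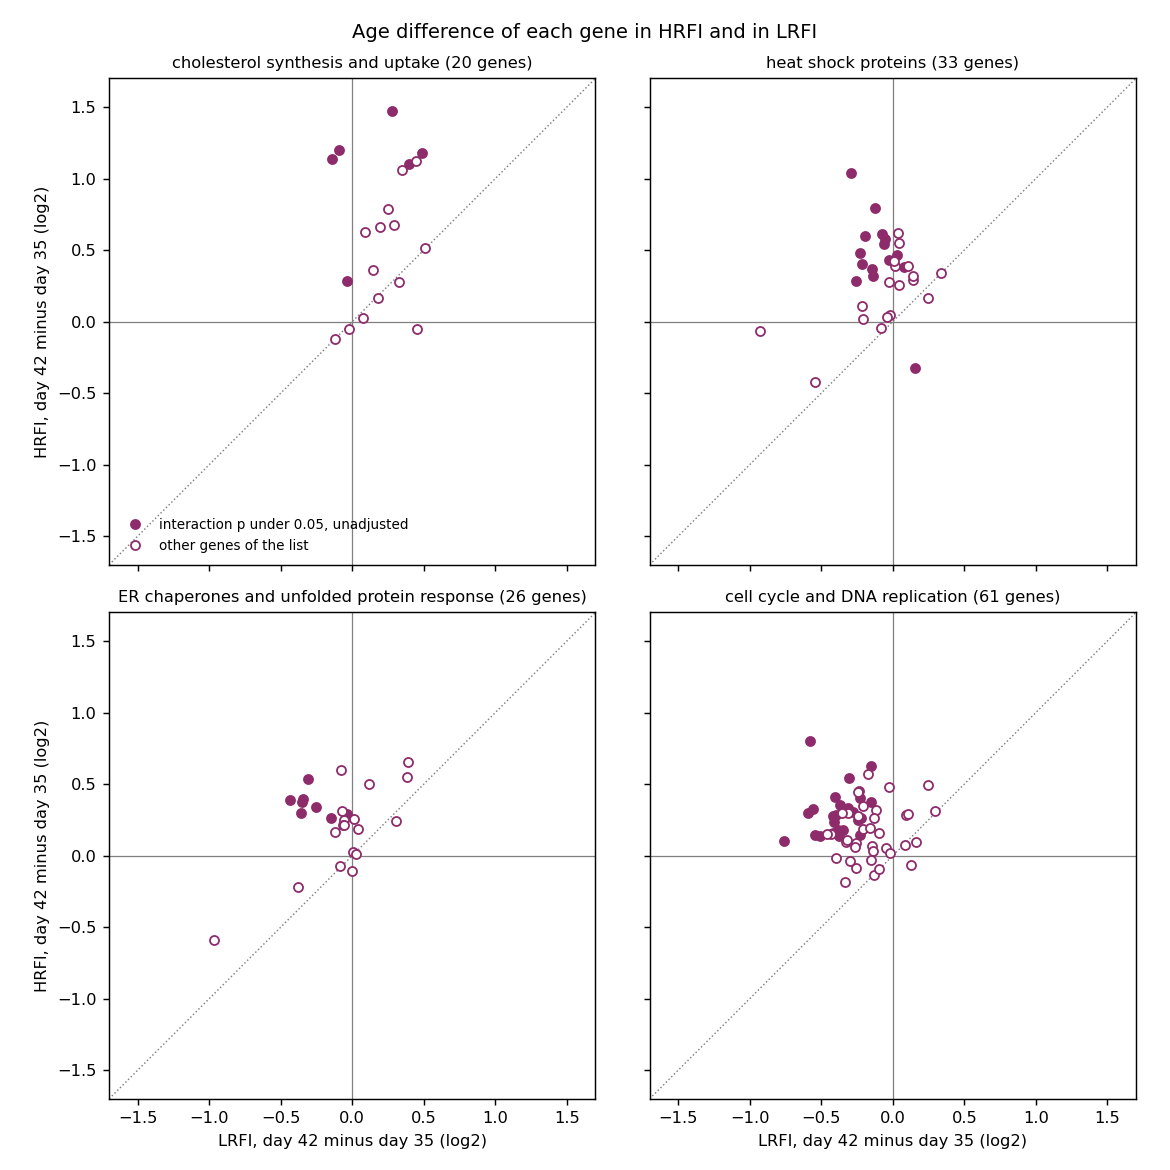
Each point is a gene, placed by day 42 minus day 35 (log2) in HRFI on the vertical axis and in LRFI on the horizontal axis, in 4 panels for 4 gene lists, with the dotted line marking equal differences. Filled points have an unadjusted interaction p under 0.05, and none passed after adjustment. Most genes of each list lie above 0 in HRFI, and most cell cycle genes lie below 0 in LRFI.

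Enzymes that burn fatty acids in mitochondria had a median difference of 0.26, with 14 of 18 higher. CPT2, which hands fatty acids to the mitochondrial matrix as CoA esters, read 10.43, 10.62, 10.49 and 10.34 on the day 42 arrays, against 10.16, 10.30, 10.003 and 9.82 on the day 35 arrays. SLC25A20, the carnitine carrier of the inner membrane, read 11.42, 11.64, 11.20 and 11.24 on the day 42 arrays, against 10.89, 11.04, 10.51 and 10.84 on the day 35 arrays. Both separate the ages, by 0.40 and 0.55, and so does the thiolase ACAT1, by 0.50. ETFA, a subunit of the electron carrier that takes up electrons from the acyl-CoA dehydrogenases, lay lower on every day 42 array, by −0.28 (SE 0.090, adjusted p = 0.415), while ETFDH, which receives those electrons, differed by 0.49. An unadjusted p under 0.05 was reached by 6 with a higher mean and 1 with a lower one. In peroxisomes, which shorten very long and branched fatty acids, 12 of 15 genes were higher with a median of 0.22, and 3 had a higher mean at an unadjusted p under 0.05. ACOX2, an oxidase that acts on bile acid precursors, read 9.01, 9.04, 8.63 and 8.48 on the day 42 arrays, against 8.15, 8.07, 7.92 and 8.36 on the day 35 arrays. ACAA1, the peroxisomal thiolase, averaged 7.49 ± 0.088 at day 42 and 6.98 ± 0.30 at day 35, and EHHADH 11.18 ± 0.15 at day 42 and 10.81 ± 0.21 at day 35. ACOX2 and ACAA1 separate the ages. The peroxisomal median was 0.10 with the actin difference in the model and 0.14 without day 42 replicate 2, the array with the highest list mean, and the count of 3 became 6 without day 42 replicate 4. In LRFI the medians were 0.14 for mitochondrial and 0.27 for peroxisomal oxidation. Between the lines, 5 of 18 mitochondrial genes had an unadjusted p under 0.05, 4 with the difference greater in HRFI and 1 with it smaller. These became 2 greater and 2 smaller without LRFI day 42 replicate 2, and 2 greater and 1 smaller without HRFI day 35 replicate 3. Of 15 peroxisomal genes, 1 was smaller in HRFI at such a p, and 0 were when either array was left out.

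Enzymes that conjugate foreign compounds and bile pigments, with the pumps that expel the conjugates, had a median of 0.14, with 18 of 22 higher and 7 higher at an unadjusted p under 0.05. GSTT1, a glutathione transferase, read 11.64, 12.04, 11.31 and 11.13 on the day 42 arrays, against 10.34, 11.01, 9.89 and 9.87 on the day 35 arrays. The groups are separate, and the difference was 1.25 (SE 0.25, adjusted p = 0.213). UGT2A1, a glucuronosyltransferase, read 10.53, 10.93, 10.75 and 10.46 on the day 42 arrays, against 10.31, 9.90, 9.28 and 9.70 on the day 35 arrays. It too separates the ages, by 0.87 (SE 0.25, adjusted p = 0.369). MGST1, a membrane glutathione transferase, averaged 13.66 ± 0.10 at day 42 and 13.40 ± 0.028 at day 35. SULT1B1, a sulfotransferase, was the 1 member with a lower mean and a small p, at −0.57 (SE 0.20, adjusted p = 0.461). The count of 7 was 4 without day 35 replicate 3 and 3 without day 42 replicate 2. In LRFI the median was 0.097, or 0.033 without LRFI day 42 replicate 2, and GSTT1 differed by 0.74.

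The genes by which enterocytes digest and absorb showed few differences. Of 11 genes listed as brush border peptidases, which cut peptides at the villus surface, 7 were higher with a median of 0.23. Only 1, LAP3, had an unadjusted p under 0.05, a count that was 3 without day 35 replicate 2. LAP3, a leucine aminopeptidase of the cytosol and not of that surface, differed by 0.61 (SE 0.20, adjusted p = 0.428). ANPEP, aminopeptidase N, averaged 12.58 ± 0.16 at day 42 and 12.30 ± 0.31 at day 35. The peptidase ACE averaged 12.52 ± 0.13 at day 42 and 12.25 ± 0.21 at day 35, and the metalloprotease MEP1A 13.25 ± 0.15 at day 42 and 13.01 ± 0.31 at day 35. In LRFI 10 of 11 were higher with a median of 0.30, and no member had a small p for the difference between the lines.

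Of 10 disaccharidases and sugar transporters, 6 were higher with a median of 0.085, and none had an unadjusted p under 0.05. SI, sucrase-isomaltase, was the 1 member with separate groups and read 13.22, 13.39, 13.41 and 13.43 on the day 42 arrays, against 13.13, 12.98, 13.08 and 12.93 on the day 35 arrays, a difference of 0.33 (SE 0.19, adjusted p = 0.695). The fructose transporter SLC2A5 differed by 0.81 (SE 0.49, adjusted p = 0.711) with a wide spread, 10.75 ± 0.74 at day 42 and 9.93 ± 0.47 at day 35. SLC2A1, a glucose transporter, differed by −0.29 and SLC2A9, a urate transporter, by 0.11. The LRFI median was 0.37. Leaving out 1 array moved the HRFI median between 0.047 (without day 35 replicate 1) and 0.15 (without day 42 replicate 1).

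Of 19 peptide and amino acid transporters, 10 were higher and the median was 0.040, with 1 gene higher and 1 lower at an unadjusted p under 0.05. SLC15A1, the di- and tripeptide carrier of the brush border, read 13.64, 13.73, 13.59 and 13.80 on the day 42 arrays, against 13.24, 13.29, 13.65 and 13.35 on the day 35 arrays. Its difference was 0.31 (SE 0.12, adjusted p = 0.489), against −0.095 in LRFI. SLC1A4, a neutral amino acid transporter, differed by −0.43 (SE 0.16, adjusted p = 0.494), SLC38A1 by −0.25 and SLC36A1, a proton-coupled amino acid transporter, by −0.29. Without day 42 replicate 4, which has a high actin difference, the list median was −0.061, and without day 35 replicate 4 it was −0.021, so its sign rests on single arrays. Lipid uptake and lipoprotein assembly showed no gene of 20 at an unadjusted p under 0.05, with a median of 0.013 and 10 higher, or 0.051 and 16 higher without day 35 replicate 2. The lipid droplet protein PLIN2 differed by 0.43, the fatty acid transport protein SLC27A4 by 0.21, APOB, the scaffold of lipoproteins, by 0.23 and MTTP, which loads it with lipid, by 0.26. The ages overlapped for each of these 4 genes.

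Genes of the circadian clock had a median of 0.15, with 10 of 17 higher. CSNK1E, a kinase that marks PER proteins for breakdown, averaged 9.64 ± 0.41 at day 42 and 8.86 ± 0.40 at day 35. PER2, a repressor of the clock, averaged 7.36 ± 0.86 at day 42 and 8.13 ± 0.66 at day 35, a difference of −0.77 (SE 0.35, adjusted p = 0.587). ARNTL, an activator of the clock, differed by 0.37 on its brightest probe set and by −0.27, −0.053 and 0.065 on its dimmer ones. ARNTL2 differed by −0.26. The median was 0.023 with the actin difference in the model, 0.030 without day 42 replicate 3, 0.067 without day 42 replicate 4 and 0.081 without day 35 replicate 4. The labels give no hour of sampling.

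The interferon response and T and NK cell markers had lower medians at day 42, and both turn on single arrays. Of 32 interferon genes, 20 had lower means with a median of −0.14, 2 lower and 1 higher at an unadjusted p under 0.05. IRF7, a factor that drives interferon production, averaged 7.88 ± 0.57 at day 42 and 8.48 ± 0.23 at day 35, a difference of −0.60 (SE 0.25, adjusted p = 0.545). The chemokine CCL19 differed by −0.61, TRIM25, a ubiquitin ligase of RIG-I signalling in mammals, by 0.25, and DHX58, an RNA sensor, by −0.46. The list mean was 7.69, 7.41, 8.06 and 8.25 on the day 42 arrays, against 8.21, 7.86, 7.45 and 8.77 on the day 35 arrays, which overlap widely. The median was 0.011 without day 35 replicate 4, −0.059 without day 42 replicate 2, −0.25 without day 35 replicate 3 and −0.23 without day 42 replicate 4. It was −0.51 without the arrays of high actin difference. In that setting 16 of 32 genes were lower at an unadjusted p under 0.05, against 634 of all 13013 genes. It keeps 3 day 42 and 2 day 35 arrays, and those kept at day 35, replicates 1 and 4, have the highest list means of that age. In LRFI the median was −0.26 with 5 of 32 higher, or −0.19 with 9 higher without LRFI day 42 replicate 2. The difference between the lines had an unadjusted p under 0.05 for 0 of 32.

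Of 29 T and NK cell markers, 22 had lower means with a median of −0.17, and 5 were lower and none higher at an unadjusted p under 0.05. CD3D, a chain of the T cell receptor complex, read 11.58, 11.51, 11.14 and 11.57 on the day 42 arrays, against 11.80, 11.45, 12.17 and 12.17 on the day 35 arrays. The groups overlap, with 1 low array at day 42, and the difference was −0.45 (SE 0.15, adjusted p = 0.428). CD28, the costimulatory receptor, averaged 5.87 ± 0.14 at day 42 and 6.41 ± 0.41 at day 35, TRAT1, a T cell receptor adaptor, 4.86 ± 0.41 at day 42 and 5.56 ± 0.31 at day 35, and IL2RA, a chain of the interleukin 2 receptor, 4.13 ± 0.12 at day 42 and 4.40 ± 0.080 at day 35. IL2RA was lower on every day 42 array. The list mean was 6.85 to 7.05 on the day 42 arrays, against 6.85 to 7.41 on the day 35 arrays, highest on day 35 replicate 4. Without that array the median was −0.030 with 3 genes lower at an unadjusted p under 0.05, without day 42 replicate 3 it was −0.093, and without the arrays of high actin difference it was −0.31 with 8. In LRFI it was −0.029, and −0.015 without LRFI day 42 replicate 2. CD8BP, named for its value, differed by −0.39 in HRFI and 0.52 in LRFI, and the difference between the lines was −0.90 (SE 0.24, adjusted p = 0.595).

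Pancreatic acinar genes had the largest median of any list, −2.04, with 19 of 19 lower, and it came from 1 array. Their mean was 5.56, 5.29, 5.63 and 5.50 on the day 42 arrays, against 5.57, 5.67, 11.96 and 5.85 on the day 35 arrays. Without day 35 replicate 3 the median was −0.064 with 3 genes higher. REG4, a secreted lectin also made in the gut, was the 1 member with an unadjusted p under 0.05, at 10.82, 10.14, 11.33 and 11.96 on the day 42 arrays, against 12.22, 11.81, 12.19 and 13.01 on the day 35 arrays, a difference of −1.24 (SE 0.38, adjusted p = 0.393). Its values do not follow the pancreatic array, which is not the highest of them. PDIA2, a disulphide isomerase of the pancreas, averaged 5.13 ± 0.15 at day 42 and 6.55 ± 2.34 at day 35. RBPJL, a transcription factor of acinar cells, averaged 5.45 ± 0.12 at day 42 and 6.16 ± 1.25 at day 35. Both were high on day 35 replicate 3 alone. The protease inhibitor gene SPINK5 averaged 6.18 ± 0.35 at day 42 and 7.08 ± 1.17 at day 35. It read 8.69, 7.19, 6.25 and 6.20 on the day 35 arrays, so it too does not follow the pancreatic array.

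The probe sets with the smallest p in each direction include genes outside these groups. FAAH, which degrades fatty acid amides such as anandamide, read 11.96, 11.98, 11.58 and 11.81 on the day 42 arrays, against 11.18, 11.16, 10.66 and 10.996 on the day 35 arrays. MAOA, a monoamine oxidase, read 12.93, 13.12, 13.03 and 12.93 on the day 42 arrays, against 12.30, 12.57, 12.23 and 12.61 on the day 35 arrays. GOT2, the mitochondrial aspartate aminotransferase, read 8.75, 8.75, 8.62 and 8.28 on the day 42 arrays, against 8.04, 7.99, 7.51 and 7.91 on the day 35 arrays. Each separates the ages, and every other probe set of these 3 genes also had all day 42 arrays above all day 35 arrays, with differences of 0.63 for FAAH, 1.36 and 1.26 for MAOA and 0.39 for GOT2. The differences of the probe sets named were 0.84 (SE 0.15, adjusted p = 0.175) for FAAH, 0.57 (SE 0.10, adjusted p = 0.194) for MAOA and 0.74 (SE 0.14, adjusted p = 0.194) for GOT2. CYP2U1, a cytochrome P450 that oxidises fatty acids, differed by 0.83, ACSS1A, an acetyl-CoA synthetase, by 0.80, with 0.34 and 0.40 on its brighter probe sets, and PM5 by 0.55.

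Among the 10 with lower means, MGP, an inhibitor of calcification in soft tissue, was the brightest and read 12.27, 11.84, 12.62 and 12.60 on the day 42 arrays, against 13.11, 12.90, 12.88 and 12.92 on the day 35 arrays. It separates the ages, by −0.62 (SE 0.14, adjusted p = 0.273), and differed by −0.50 in LRFI. CD40LG, the T cell ligand that activates B cells, read 6.87, 6.71, 6.64 and 6.71 on the day 42 arrays, against 7.03, 7.24, 7.64 and 7.55 on the day 35 arrays. These groups are also separate, by −0.63 (SE 0.14, adjusted p = 0.273), against 0.12 in LRFI. TM4SF1, a membrane protein of the tetraspanin-like L6 family, differed by −0.59 (SE 0.13, adjusted p = 0.273). The other 7 read lower on the probe sets named, and probe sets of a gene often disagreed. Those named for BCAS3, CCNH, ASB1, ELK4 and TNPO1 had means of 3.47 to 5.03 at day 42 and 3.86 to 5.44 at day 35. They and that of GCNT2 are dim, as is CYP51A1 above. Differences of dim probe sets are compressed, so these values cannot show by how much the genes differed with age. BCAS3 differed by −0.41 on the probe set named and −0.037 on the brighter one. CCNH, a cyclin of the kinase that activates other cell cycle kinases, differed by −0.44 and −0.072. ASB1 differed by −0.54 and −0.10, and ELK4, a transcription factor of the ETS family, by −0.39 against 0.38 on the brightest. TNPO1, a nuclear import receptor, differed by −0.43, by −0.76 on a brighter probe set and by 0.32 on another. NCKAP5 differed by −0.58 on its brightest probe set, which averaged 5.89 ± 0.19 at day 42 and 6.47 ± 0.13 at day 35, and GCNT2, a glycosyltransferase, by −0.66 at a level of 3.21 ± 0.23 at day 42 and 3.87 ± 0.11 at day 35. Skipped in naming were 1 probe set without a symbol and 1 uncharacterized locus among those with higher means, and 15 and 1 among those with lower means.

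**Figure D4:**
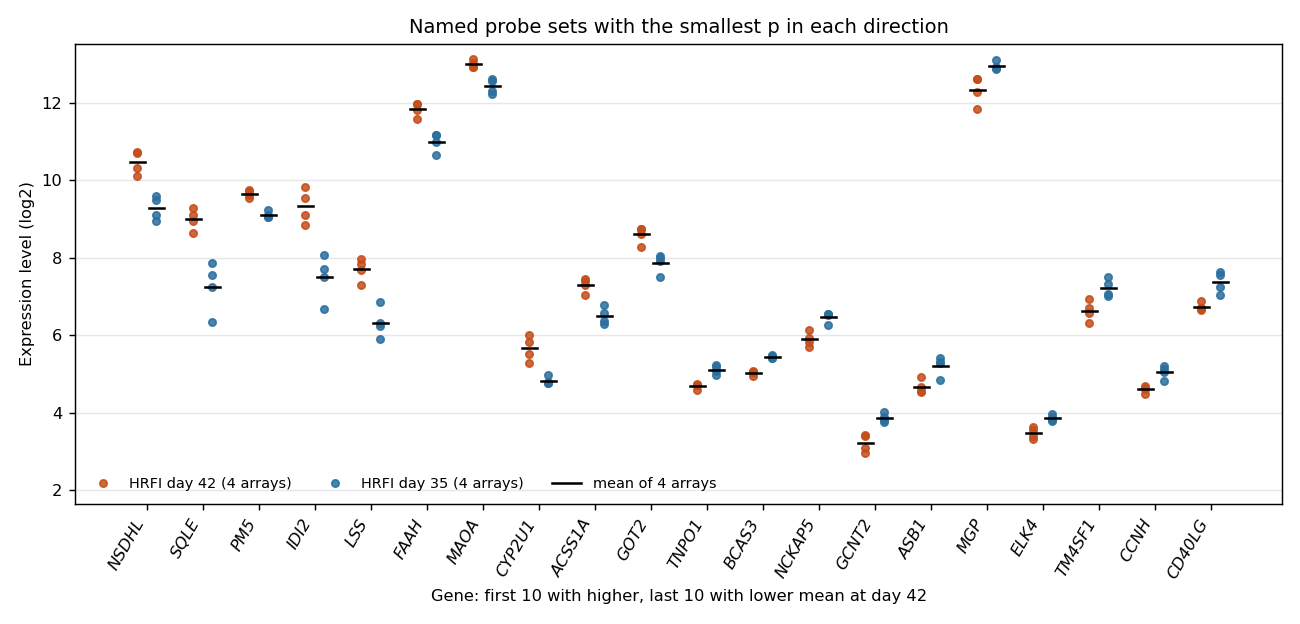
Each point is the log2 level of the probe set on 1 HRFI array, with day 42 left of day 35 and a black bar at each mean of 4, for the 10 named genes with higher and the 10 with lower means at the smallest p. The first 10 have every day 42 point above every day 35 point. MGP has the highest levels of the last 10, with means of 12.34 on day 42 and 12.95 on day 35.

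The remaining 31 lists had medians between −0.12, for fibroblast and matrix genes, and 0.14, for enzymes of xenobiotic oxidation. Both limits turn on single arrays: with 1 array left out the fibroblast median ranged from −0.21 (without day 35 replicate 3) to −0.019 (without day 35 replicate 4), and the xenobiotic median was 0.077 without day 35 replicate 3. Fibroblast and matrix genes had 32 of 46 lower and smooth muscle genes 19 of 28, with list means of 7.76 to 8.06 on the day 42 arrays, against 7.77 to 8.24 on the day 35 arrays for fibroblast genes. Erythrocyte genes had 14 of 15 lower with a median of −0.11, and genes of enteric neurons and glia 23 of 26 with −0.078. At an unadjusted p under 0.05, 1 erythrocyte gene and 2 neuron and glia genes were lower and none higher. The cytosolic ribosomal proteins, the subunits of the protein-making machine, had a median of −0.034 over 61 genes, the respiratory chain −0.0069 over 60, and the proteasome 0.068 over 32. Goblet cell genes, which make mucus, had −0.020 over 17 and enteroendocrine genes −0.0042 over 24. The respiratory chain median ran between −0.043 (without day 35 replicate 1) and 0.022 (without day 35 replicate 2) when 1 array was left out. In the same way the ribosomal median ran between −0.051 (without day 42 replicate 2) and −0.015 (without day 35 replicate 2), the goblet median between −0.054 (without day 42 replicate 3) and 0.020 (without day 42 replicate 2), and the enteroendocrine median between −0.038 (without day 35 replicate 3) and 0.038 (without day 42 replicate 1). A list can depart from LRFI with an HRFI median near 0. Acute phase and inflammatory mediators had a median of −0.047 over 41 genes in HRFI and −0.28 in LRFI. Of the 41, 14 had an unadjusted p under 0.05 with the difference greater in HRFI and 1 with it smaller, and none passed. The 14 became 12 without HRFI day 35 replicate 3 and 9 without both arrays of high pancreatic signal. Across 13013 genes the differences in HRFI and LRFI, which share no arrays, had the same sign for 57.9%, a description since genes are not independent.

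**Figure D5:**
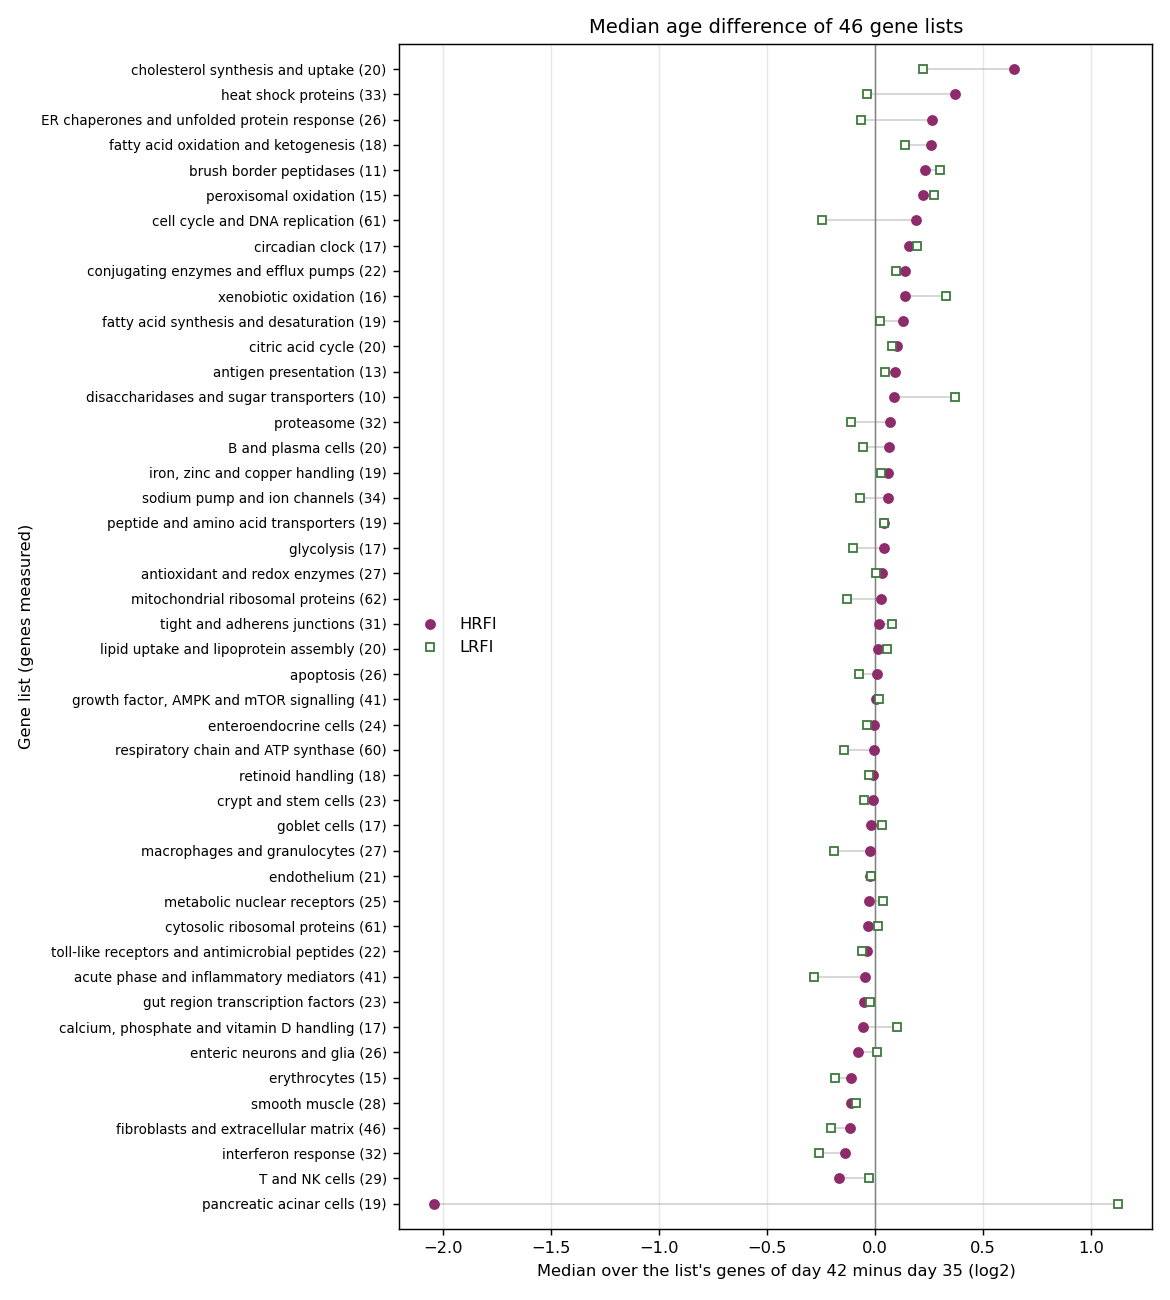
Each row is a gene list with its number of measured genes, and the points give the median over those genes of day 42 minus day 35 (log2) in HRFI (filled circle) and LRFI (open square). In HRFI the cholesterol list is highest at 0.64 and the pancreatic list lowest at −2.04, and most others lie within 0.2 of 0.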

How the data were processed

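One-colour Affymetrix chicken arrays were used for duodenal RNA, 16 in all and 4 for each line and age. The deposited values are on a log2 scale, 1 per probe set and array, and were made by the authors with Partek 6.5 and RMA, per the submitters' processing notes. RMA corrects background, quantile normalizes and summarizes probes, which compresses differences of dim probe sets. The values were used as deposited. Of 38535 probe sets, 96 controls were left out. The platform annotation gave 27184 of the rest 1 gene symbol, 161 several and 11094 none, and 26869 matched a RefSeq gene table (GRCg7b) used for names only. Arrays give no read depth, and their number limits the precision: differences had a median standard error of 0.12.

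A model with 1 mean per line and age was fitted to all 16 arrays with limma (version 3.58.1, under R 4.3.3, with tables loaded by the package data.table, version 1.17.8). Variances were moderated with eBayes, the Benjamini-Hochberg adjustment ran over 38439 probe sets, and the threshold was an adjusted p under 0.05. Contrasts were day 42 minus day 35 in HRFI, the same in LRFI, and their difference (the interaction of line and age). The procedure was tested on simulated data. A gene was read by the probe set with the highest mean over all 16 arrays. The 46 gene lists were described by counts and medians with no test of a list. The comparison and the lists were chosen with earlier results of these data known. Named were the 10 genes with the smallest p in each direction, and up to 4 genes with the smallest p in each of 15 lists: the 12 with the largest medians and those of digestion and absorption. Sterol genes beyond these are given because they complete the pathway, and any further gene was picked for its values. The labels' replicate numbers were checked for pairing. Over all probe sets, deviations of same-numbered HRFI arrays correlated at −0.090, −0.024, 0.16 and −0.17, so the arrays were not treated as pairs. Some genes ranked the replicates alike at both ages, as given below with the replicate block. Alternatives were a replicate block, other variance settings, the HRFI arrays alone, median centring, bright probe sets only, the actin difference as a covariate, and leaving out each array, the arrays with an actin difference over 1 and those with pancreatic genes.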

Additional observations from a re-analysis of the deposited data

Results flagged for a closer look

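Among 190 groups of 4 HRFI arrays, 14 held an array whose gap to its nearest neighbour, divided by the range, exceeded Dixon's critical value for 4 samples, and chance gives about 1 in 20. On day 35 replicate 3 the mean of the pancreatic list was 11.96 against 5.57 to 5.85 on the other 3 arrays of its age, with PDIA2 at 10.05 against 5.21 to 5.67 and RBPJL at 8.03 against 5.34 to 5.69. The same array was low for PLIN2, at 8.27 against 9.10 to 9.23, and high by little for the mean of peptide and amino acid transporters, at 7.82 against 7.79 on each of the other 3.

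Day 35 replicate 4 was low for SQLE, at 7.75 against 9.32 to 9.49 on the brightest probe set, and for HSPA9, at 11.24 against 11.41 to 11.45. Day 35 replicate 2 was low for NUF2, at 6.54 against 7.16 to 7.29, and for PLK4, at 5.73 against 5.89 to 5.92, and high for SLC36A1, at 9.91 against 9.56 to 9.61. Day 35 replicate 1 read 4.96 for CYP2U1, where the other 3 were 4.77 to 4.78, and 6.27 for NCKAP5, where they were 6.53 to 6.55. On day 42 replicate 3, CD3D read 11.14 against 11.51 to 11.58 on the other 3 day 42 arrays, and TNPO1 4.57 against 4.71 to 4.73.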

How the results depend on the processing

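The count of probe sets passing in HRFI, 0 in the comparison reported, was 11 with a replicate block, 1 with the 8 HRFI arrays alone, and 0 to 1 when each HRFI array was left out in turn. The replicate block gave NSDHL, AACS, SQLE, LSS, MSMO1, GSTT1, PM5, IDI2 on 2 probe sets and 2 unnamed probe sets, all higher at day 42 (adjusted p = 0.00063 to 0.0401). AACS, an acetoacetyl-CoA synthetase, differed by 1.36. The replicate numbers did not pair the HRFI arrays by their correlations over all probe sets. That check leaves out the LRFI arrays, which the block includes, and does not speak to single genes. NSDHL, MSMO1 and GSTT1 ranked replicates 2, 1, 3 and 4 from high to low at both ages. SQLE, LSS, PM5 and IDI2 did not rank the replicates alike at both ages. These genes passed under the block, which favours a shared order, so whether genes follow the replicate number was not tested. For NSDHL the SE was 0.17 without the block and 0.096 with it. What the shared numbers stand for is not given in the labels, so this count rests on them only. The 1 probe set with the HRFI arrays alone was of LOC107049264 (−2.37, adjusted p = 0.0338), and the 1 without day 35 replicate 4 was of MHCY4 (6.31, adjusted p = 2.22e-07). The counts for the interaction and for LRFI stayed at 0 under each alternative run for them, which include leaving out the arrays of high pancreatic signal, a choice made after seeing the data. No alternative on the actin difference was examined for these counts. Probe sets with an unadjusted p under 0.05 numbered 3183 and were 2039 among those above the median level, where fewer are tested. Of 79 named probe sets none changed sign under any alternative, with 72 of them present above the median level, and 7 passed under the block alone. They were named for a small p on these same arrays, which favours a stable sign, so their stability adds no support. List medians near 0 changed sign for up to 6 of 46 lists in a setting. The number of arrays, and for dim probe sets the signal over background, limits what can be resolved.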

Other observations

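Fatty acid synthesis, which shares the SREBP family of regulators with sterol synthesis, had a median difference of 0.13 over 19 genes in HRFI, with 12 higher, 4 higher and none lower at an unadjusted p under 0.05. Without day 35 replicate 3, where pancreatic genes and the actin difference peak, the median was 0.083. These genes were chosen after their values were seen, and none passed. FASN, the fatty acid synthase, read 8.69, 8.72, 8.36 and 8.13 on the day 42 arrays, against 7.80, 7.77, 7.72 and 7.23 on the day 35 arrays, separate by 0.84 (SE 0.19, adjusted p = 0.273). ACLY, which makes cytosolic acetyl-CoA from citrate, read 9.65, 9.33, 9.55 and 9.19 on the day 42 arrays, against 8.79, 9.16, 8.91 and 8.84 on the day 35 arrays, also separate, by 0.50 (SE 0.15, adjusted p = 0.369). ELOVL6, an elongase, differed by 0.57, ACACA, the acetyl-CoA carboxylase, by 0.46 and SREBF1, the gene of SREBP1, by −0.076.

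In the toll-like receptor and antimicrobial list, LYZ, a lysozyme that breaks bacterial walls, read 8.37, 7.11, 7.95 and 9.16 on the day 42 arrays, against 9.71, 9.51, 9.44 and 10.65 on the day 35 arrays, separate by −1.68 (SE 0.47, adjusted p = 0.364). The defensin AvBD7 differed by −1.44 (SE 0.72, adjusted p = 0.626) and AvBD4 by −0.34 (SE 0.16, adjusted p = 0.611). Of other defensins, AvBD9 differed by −1.02, AvBD1 by −0.93, AvBD10 by −0.55, AvBD6 by −0.25, AvBD5 by 0.092 and AvBD8 by 0.019. In LRFI, LYZ differed by −1.23, AvBD7 by −2.43, AvBD4 by −0.91 and AvBD1 by −2.09, but AvBD9 by 1.77 and AvBD10 by 0.90. The list's HRFI median was −0.037 over 22 genes. It ranged from −0.081 (without day 35 replicate 3) to −0.026 (without day 35 replicate 4) when 1 array was left out. In the calcium list the median over 17 genes was −0.056, but −0.0036 without day 42 replicate 3 and −0.11 without day 35 replicate 2. At an unadjusted p under 0.05, 4 were lower and none higher, against 4.45% of all genes lower. The 4 became 2 to 4 when any 1 array was left out. ATP2B4 differed by −0.36 (SE 0.12, adjusted p = 0.415), with separate groups. GC differed by −0.50 in HRFI and 0.71 in LRFI, and the difference between the lines was −1.21 (SE 0.27, adjusted p = 0.539). There, STC2, a stanniocalcin, read 8.31, 6.18, 6.21 and 7.63 on the day 42 arrays, against 8.20, 9.16, 8.26 and 8.31 on the day 35 arrays. On day 42, 1 array lay among the day 35 values and 3 below them, and the difference was −1.40 (SE 0.63, adjusted p = 0.583). CALB1, the calcium-binding protein of enterocytes, differed by 0.083.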
